A study of Mus musculus with 9 samples.

Results

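The genes described here are the nuclear-encoded subunits of the respiratory chain, read complex by complex in blood stem and progenitor cells with and without Socs2. They were taken as all genes on the array whose symbol starts with Ndufa, Ndufb, Ndufc, Ndufs, Ndufv, Sdh, Uqcr, Cox4 to Cox8 or Atp5. Genes named Ndufaf and Sdhaf encode assembly factors of complexes I and II and were kept as a separate group. The rule found 91 of the 19057 named genes on the array, on 142 probes. They are 79 subunit genes and 12 assembly factors, with 36 subunit genes in complex I, 4 in complex II, 7 in complex III, 16 in complex IV and 16 in complex V. One of the 36, Ndufs5-ps, is a transcribed pseudogene on chromosome 16 in the RefSeq annotation, which the rule takes in by its symbol.

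Mitochondria make most of their ATP with the respiratory chain, a set of protein complexes in the inner membrane that pass electrons from NADH and succinate to oxygen and use the proton gradient this builds. Complexes I (NADH dehydrogenase) and II (succinate dehydrogenase) take in electrons, complexes III (the cytochrome bc1 complex) and IV (cytochrome c oxidase) pass them on to oxygen, and complex V (ATP synthase) makes ATP. Blood stem cells at rest are known to lean on glycolysis, and their use of mitochondria grows when they are drawn into division.

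The cells were LSK cells, the bone marrow fraction that lacks lineage markers and carries Sca-1 and Kit, from male C57BL/6 mice aged 12 weeks. All mice of both genotypes had received 5-fluorouracil, a drug that kills dividing cells, at 150 µg/g and were killed on day 6. The genotypes were wt, with 5 bead arrays, and Socs2-/-, with 4 arrays from mice that lack Socs2, a cytokine-induced inhibitor of JAK-STAT signalling. The labels do not give the allele, nor whether an array stands for 1 mouse or a pool, so part of the spread between arrays, on which the p-values rest, may be technical. The RNA input of 250 pg per sample was amplified before labelling. The comparison of the genotypes addresses the effect of losing Socs2 on transcripts after the drug.

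Arrays 1 and 2 of the Socs2-/- group stood apart from the rest. They had 31.1% and 31.0% of probes above a log2 value of 7.5, the level used here as the lower limit of a measured signal, against 34.3% to 35.4% on the other 7 arrays. Each correlated less with the rest (median r of 0.52 and 0.49) than the other arrays did (0.65 to 0.72), and results are given with and without them below. The targeted gene Socs2 had values of 6.58 to 6.80 in the Socs2-/- arrays and 9.38 to 10.36 in the wt arrays, at least 4.51-fold lower (limma adjusted p = 0.036). That adjusted p was above 0.05 without any one array other than wt array 3, at 0.056 to 0.168, and where the deletion lies relative to the probe is not given. Socs2 was above 7.5 on the wt arrays alone and entered the fit through them. Its p is given only as a check of the targeted gene. Of the LSK markers listed for this work 6 had a named probe and all 6 were measured, with Cd34, Cd48 and Procr above 7.5 on all 9 arrays and Kit on 8. Their differences between genotypes ran from -1.40 for Slamf1 to 0.93 for Procr, with a median of -0.17 and 2 of 6 above 0. Of 6 lineage markers with a named probe, 3 were measured, and Cd5 and Ms4a1 were at or below 7.5 on every array. The 3 measured were Cd8a, at 8.12 to 9.86 on all 9 arrays, Cd4, above 7.5 on 7 and up to 9.91, and Cd3e, above it on 5 and up to 10.10. Of monocyte and macrophage genes 9 of 11 were measured (median difference between genotypes -0.36, 1 of 9 above 0, Lyz1 at 10.71 to 12.97), and of granulocyte and mast cell genes 8 of 12 (median -0.52). The 1 monocyte and macrophage gene above 0, Csf1r, differed by 1.46 without overlap, and Mrc1 and Vcam1 differed by -1.92 and -1.57, with limma adjusted p of 0.317, 0.473 and 0.415. Without Socs2-/- arrays 1 and 2 these were 1.66, -0.47 and -0.63.

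Subunit genes were brightly and steadily detected in LSK cells. A gene was counted as measured when a probe read above 7.5 on at least 4 of the 9 arrays, and the probe with the highest mean stood for the gene. This held for 74 of 79 subunit genes and 11 of 12 assembly factors, against 8543 of the 19057 named genes. Of the 74 measured subunits, 63 were above 7.5 on all 9 arrays, a share of 85.1%. The share over all genes tested was 34.9%, and of the 11 assembly factors only Ndufaf2 was above 7.5 on every array. The spread between arrays of one genotype, as the residual SD on the log2 scale, had a median of 0.48 over the subunits and 0.92 over all genes tested. Among genes above 7.5 on all 9 arrays the gap was smaller, with 0.45 over the subunits and 0.63 over all genes. In complex V all 16 subunits were above 7.5 on all arrays and the median residual SD was 0.35, and in complex I it was 0.67.

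The genes that did not reach the limit were mostly tissue isoforms. Cox7b2 and Cox8c, isoforms known from testis, and Cox8b, an isoform of striated muscle, were at or below 7.5 on every array. Cox6a2, another muscle isoform, was above 7.5 on 2 arrays, Socs2-/- array 3 at 8.67 and wt array 5 at 7.93. Ndufb11, a membrane-arm subunit of complex I, was above it on 3 arrays, at 8.05, 8.40 and 8.0 on Socs2-/- arrays 1 and 2 and wt array 1. The assembly factor Ndufaf3 was above it on wt array 3 only, at 9.45. None of these 6 genes was tested, except where the filter on dim probes was left out.

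Sequences near the transcription start are shown for Sdhaf4, Sdhb, Uqcr11 and Ndufc1, genes that the genotype comparisons below turn on and whose windows held a searched motif, because respiratory chain promoters are known for motifs of the factors NRF1, GABP and YY1. They are taken from RefSeq (mouse build GRCm38.p6) and written 5′ to 3′ on the gene's strand in lower case, with the matched motif letters in capitals. Position 1 is the annotated start, and position -1 is the base before it. Sdhaf4 (chr1:24005611-24005760, minus strand) holds the NRF1 motif from positions -44 and 10. Sdhb (chr4:140961151-140961300, plus strand) holds the ETS motif that GABP binds from position 7. Uqcr11 (chr10:80406792-80406941, minus strand) holds the ETS motif from position -66 and the NRF1 motif from position -5. For Ndufc1 (chr3:51408917-51408946, minus strand) only the 30 bases around its YY1 match, which starts at position 23, are shown.
Sdhaf4: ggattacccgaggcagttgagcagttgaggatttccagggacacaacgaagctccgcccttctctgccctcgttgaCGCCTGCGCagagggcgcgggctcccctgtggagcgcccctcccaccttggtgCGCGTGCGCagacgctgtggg
Sdhb: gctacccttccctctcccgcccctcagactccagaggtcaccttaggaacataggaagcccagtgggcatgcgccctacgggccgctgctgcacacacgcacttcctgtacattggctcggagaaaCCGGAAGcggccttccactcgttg
Uqcr11: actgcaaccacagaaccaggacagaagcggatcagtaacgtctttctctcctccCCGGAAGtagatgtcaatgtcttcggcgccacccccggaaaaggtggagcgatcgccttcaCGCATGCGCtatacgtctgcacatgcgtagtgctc
Ndufc1: gagcctgcggaacAAGATGGCGccgtccgt

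The motifs searched were CGCNTGCGC for NRF1, CCGGAAG for ETS factors and AANATGGCG for YY1, on both strands of windows of 300 bases around each annotated start. Matches of the near-palindromic NRF1 motif on the 2 strands can overlap at neighbouring positions, and a window was counted once. Of 79 subunit genes, 65 had a window in the RefSeq table, with 70 windows in all. At least 1 motif was found in 38 of the 70 windows (54.3%), against 32.4% of the 8838 windows of genes tested on the array and 15.4% of all 32851 windows. The NRF1 motif was in 28.6% of the subunit windows and 14% of those of all genes tested. The ETS motif was in 22.9% and 18.3%, and the YY1 motif in 14.3% and 5.27%. By complex, 12 of 17 complex V windows, 18 of 34 of complex I and 2 of 11 of complex IV held a motif, as did 8 of 11 windows of the assembly factors. A match is a match of letters only and does not show that a factor binds there.

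Genotype comparisons used limma on the deposited log2 values, and every difference below is Socs2-/- minus wt on the log2 scale. No subunit gene and no assembly factor passed an adjusted p of 0.05, where the background was 1 gene of 8543 (0.0117%), Socs2 itself. At an unadjusted p under 0.05, 2 of 74 subunits were higher in Socs2-/- (Cox4i2 and Sdhb), against 2.29% of all genes tested, and 1 was lower (Ndufc1), against 7.87%. Of the 11 assembly factors, Sdhaf4 was higher at that level. Ndufaf7, lower at it, met the filter through its wt arrays, with 1 Socs2-/- array above 7.5, and is given below without a test. The genotypes did not overlap for 1 subunit, Uqcr11, and 1 assembly factor, Sdhaf4, both higher in Socs2-/- (background 0.983% higher and 2.72% lower). Without the filter on dim probes 0 of 79 subunits passed the adjusted threshold (background 0.0105%). At an unadjusted p under 0.05, 4 were then higher (Cox4i2, Sdhb, Uqcr11 and Atp5e, background 3%) and Ndufc1 lower (background 4.83%), and 55 of 79 had a difference above 0 (background 48.9%). In simulated data of this size the fit recovered 0 of 50 genes with a simulated log2 change of 1 and 16 of 50 with one of 2. Those genes were drawn at random from all genes tested, with a median residual SD of 0.92 against 0.48 over the subunits. The share recovered among genes as steady as the subunits was not simulated. In a bulk sample of sorted cells, fewer cells of a type and less RNA per cell cannot be told apart.

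Over all subunits, differences were small and more often positive than those of other genes. Of 74 measured subunits 50 had a difference above 0 (67.6%), against 40.5% of all genes tested. The median was 0.15, with the middle 50% between -0.17 and 0.30, and the median over all genes tested was -0.18. Without Socs2-/- arrays 1 and 2 the subunit median was 0.13 with 57 of 74 above 0, and the median of all genes was -0.03 with 48% above 0. At an unadjusted p under 0.05, Ndufa6 and Sdhb were then higher (background 2.96%) and Ndufc1 lower (background 3.44%). Among genes above 7.5 on all 9 arrays, 46 of 63 subunits (73.0%) were above 0, against 47.8% of 2985 genes. Centring each array on its median moved the median of all genes by over 0.1, to -0.06, and that of the subunits to 0.27. For 25 of 74 subunits (33.8%) the unadjusted 95% interval of the difference lay within a 2-fold change either way, against 6.34% of all genes tested. These 25 genes include 10 of 16 in complex V, 6 of 12 in complex IV and 7 of 35 in complex I.

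**Figure D1:**
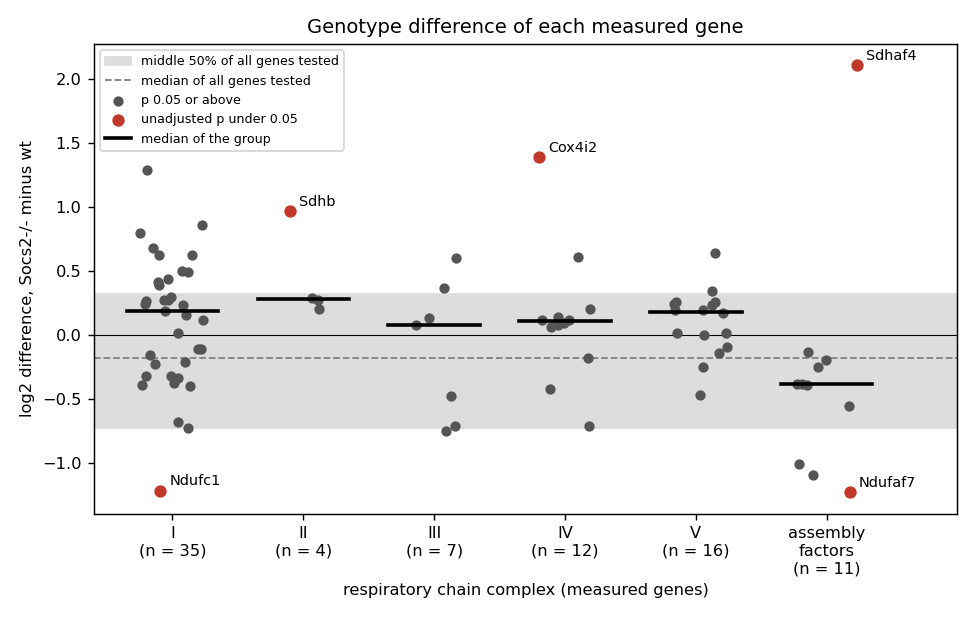
Log2 difference (Socs2-/- minus wt) of each measured gene by complex, with the group median as a bar, the middle 50% of all genes tested as a grey band and their median of -0.18 as a dashed line. Red points have an unadjusted limma p under 0.05 and are named; the medians of complexes I to V lie between 0.08 and 0.28 and that of the assembly factors at -0.38.

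The medians of the 5 complexes lay close together. They were 0.19 for complex I (21 of 35 measured subunits above 0), 0.28 for complex II (4 of 4), 0.08 for complex III (4 of 7), 0.11 for complex IV (9 of 12) and 0.18 for complex V (12 of 16). Leaving out 1 array at a time gave 0.08 to 0.20, 0.25 to 0.39, -0.14 to 0.23, 0.05 to 0.18 and 0.04 to 0.29 in the same order, with a change of sign for complex III. No test of the difference between complexes was made, since members of a complex share the same 9 arrays. On single arrays the mean of a complex, taken as the deviation from each gene's mean over all arrays, showed how the arrays spread. Complex I lay at 0.02, 0.04, 0.33 and -0.15 on Socs2-/- arrays 1 to 4 and between -0.25 and 0.10 on wt arrays. Complex V lay at 0.07, 0.02, 0.28 and -0.14 and between -0.24 and 0.08. In both complexes Socs2-/- array 3 alone lay above the wt range, and Socs2-/- arrays 1, 2 and 4 lay inside it. Complex II lay between 0.15 and 0.40 on Socs2-/- arrays and between -0.51 and 0.13 on wt arrays, without overlap. The nearest arrays were Socs2-/- array 4 at 0.15 and wt array 1 at 0.13. This narrow gap depends on the probe that stands for Sdhb. On the other Sdhb probes Socs2-/- array 4 read 8.27 and 8.25, below every wt array. How often a mean of 4 genes separates the genotypes was not tested. In complexes III and IV the genotypes overlapped widely.

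**Figure D2:**
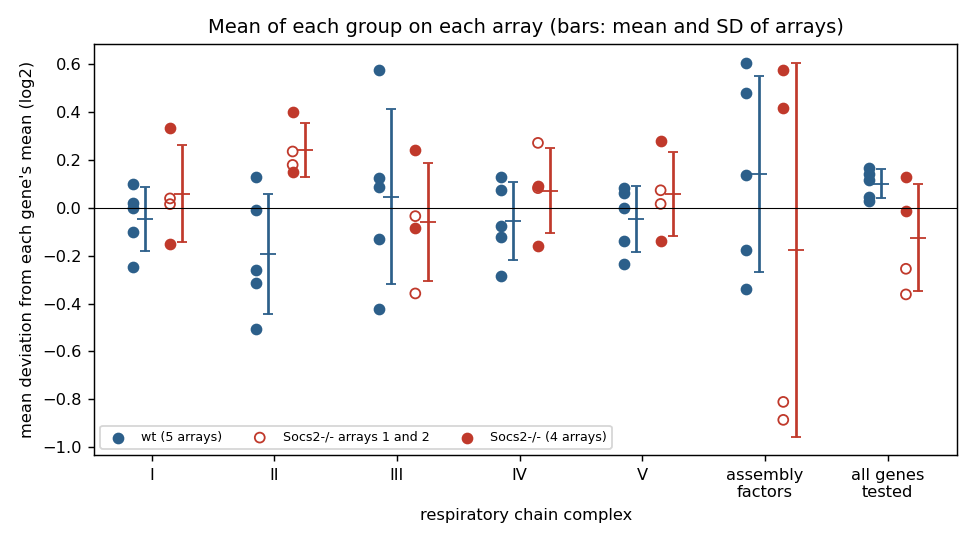
Mean deviation from each gene's own mean (log2) of every group on each array, with bars for the mean and SD over the arrays of a genotype (wt, n = 5; Socs2-/-, n = 4) and open circles for Socs2-/- arrays 1 and 2. Those 2 arrays lie near the others for the subunits but at -0.89 and -0.81 for the assembly factors and at -0.26 and -0.36 for all genes tested.

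Arrays 1 and 2 of the Socs2-/- group, which were low over all genes, were not low for the subunits. Their mean deviation was 0.08 and 0.01 over the 74 subunits and -0.26 and -0.36 over all genes tested. Among genes whose tested probe was above 7.5 on all arrays, the subunits lay at 0.12 and 0.05 on these arrays and all 2874 genes at -0.02 and -0.04. Array 3 was the highest for the subunits, with 61 of 74 above their own mean (82.4%), against 55.2% of all genes tested. Array 4 had 30 of 74 above it, and the wt arrays 31 to 48.

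Complex II takes electrons from succinate and is also an enzyme of the citric acid cycle. All 4 of its subunits were above 7.5 on every array and had a positive mean difference. Sdhb, the iron-sulfur subunit (probe ILMN_2592389, gene on chromosome 4), read 10.64, 9.74, 10.98 and 10.17 on Socs2-/- arrays 1 to 4 and 9.67, 8.44, 10.09, 9.45 and 9.43 on wt arrays 1 to 5. Of the Socs2-/- arrays, 3 lay above every wt array, and array 2 lay between wt arrays 1 and 3. Its difference was 0.97 (SE 0.43, limma p = 0.0486, adjusted p = 0.490, exact permutation p = 0.0317). It was 1.16 without Socs2-/- arrays 1 and 2 and 0.73 to 1.18 with any 1 array left out. The other Sdhb probes, which also measured the transcript on all arrays, gave 0.61 and 0.48. On both, Socs2-/- arrays 1 to 3 lay above every wt array and array 4 lay below them. Sdha, the flavoprotein that oxidises succinate, differed by 0.29 (SE 0.47), Sdhd by 0.27 (SE 0.34) and Sdhc by 0.20 (SE 0.34), the latter pair being the membrane anchors. For each of these 3 the genotypes overlapped and the limma adjusted p was 0.782 or above. The Sdhc probes disagreed in sign, at 0.20 and -0.04.

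Sdhaf4, an assembly factor that helps join Sdha to Sdhb, had the smallest p of all 85 measured genes. Its probe ILMN_2679428 (gene on chromosome 1) read 9.27, 9.94, 9.46 and 10.73 on Socs2-/- arrays 1 to 4 and 7.22, 7.33, 7.91, 7.55 and 8.72 on wt arrays 1 to 5. Every Socs2-/- array lay above every wt array, and wt arrays 1 and 2 were below 7.5. The difference was 2.11 (SE 0.45, limma p = 0.000787, exact permutation p = 0.0159), and with an adjusted p of 0.192 over all 8543 genes it was not called. No split of 9 arrays into 4 and 5 can give a smaller permutation p, and every gene without overlap has it (background 0.983% higher and 2.72% lower). Leaving out any 1 array gave 1.81 to 2.35, and leaving out Socs2-/- arrays 1 and 2 gave 2.35. A second Sdhaf4 probe was below 7.5 on all arrays, with values of 6.82 to 7.16, and measured nothing.

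**Figure D3:**
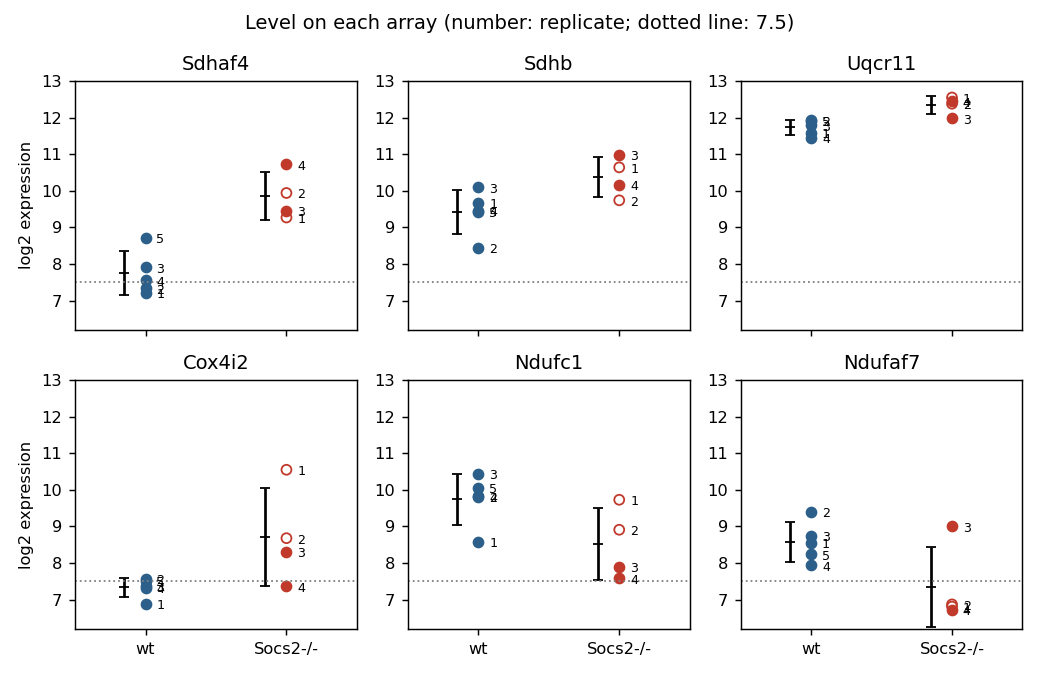
Log2 expression of 6 named genes on each of the 5 wt (blue) and 4 Socs2-/- arrays (red, with open circles for arrays 1 and 2), with replicate numbers beside the points, the mean and SD beside each group and the limit of 7.5 dotted. The genotypes are apart for Sdhaf4 and Uqcr11 and overlap for Sdhb, Cox4i2, Ndufc1 and Ndufaf7.

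The other assembly factors leaned the other way, and the sign of the median over all 11, Sdhaf4 included, changed when 2 arrays were left out. Of these 11, 10 had a difference below 0 and 1, Sdhaf4, above 0, against 40.5% of all genes tested above 0. This count takes Ndufaf8 at -0.38 on its brightest probe, while its other measured probe gave 0.95. The median over the 11 was -0.38. Without Socs2-/- arrays 1 and 2 the median was 0.29 and 7 of 11 were above 0, against 48% of all genes tested. These genes are dim: 7 and 8 of the 11 were at or below 7.5 on Socs2-/- arrays 1 and 2, against 1 and 2 on arrays 3 and 4, and 5 on wt array 1 against 1 on each other wt array. Ndufaf7, a methyltransferase that modifies a core subunit of complex I, read 6.81, 6.87, 9.0 and 6.72 on Socs2-/- arrays and 8.55, 9.40, 8.74, 7.94 and 8.24 on wt arrays. All but Socs2-/- array 3 lay below every wt array. The difference was -1.23, and -0.72 without arrays 1 and 2. Ndufaf7 met the filter through its wt arrays, with 1 Socs2-/- array above 7.5, so no test is given. Sdhaf1, which helps insert the iron-sulfur clusters of Sdhb, differed by -1.09 (SE 0.93), and Ndufaf4, a complex I factor, by -1.0 (SE 0.73), with limma adjusted p of 0.681 and 0.635. Sdhaf1 ran from 6.40 to 10.17 on Socs2-/- arrays and from 7.54 to 11.36 on wt arrays, so the genotypes overlapped over most of their range. What sets those 2 arrays apart for these genes was not tested.

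Complex I is the largest complex, with a core that carries the flavin and the iron-sulfur clusters and a coat of accessory subunits. The 6 measured core subunits of the peripheral arm had a median difference of -0.21, with 2 above 0. The 29 other measured genes, read as accessory subunits by symbol, had a median of 0.24, with 19 above 0. They include the pseudogene Ndufs5-ps and Ndufa4, which is now placed in complex IV. Without Socs2-/- arrays 1 and 2 these were 0.08 with 5 of 6 above 0 and 0.13 with 22 of 29 above 0, so the sign of the core median depended on those arrays. Ndufs1, the largest iron-sulfur core subunit, read 9.29, 6.84, 9.60 and 9.63 on Socs2-/- arrays and 8.98 to 10.14 on wt arrays. Socs2-/- array 2 alone lay below the wt range, and the difference of -0.68 (SE 0.60) was 0.10 without arrays 1 and 2. Ndufs8, which carries iron-sulfur clusters near the quinone site, differed by -0.31 (SE 0.47), and Ndufv2, an iron-sulfur protein of the NADH-oxidising end, by -0.10 (SE 0.34). The limma adjusted p of these 3 core genes was 0.690 or above.

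Among the accessory subunits Ndufc1, a small protein of the membrane arm, had the smallest p. Its brighter probe (ILMN_2983247, gene on chromosome 3) read 9.73, 8.91, 7.89 and 7.58 on Socs2-/- arrays and 8.58, 9.81, 10.44, 9.83 and 10.06 on wt arrays. Socs2-/- arrays 3 and 4 lay below every wt array, and arrays 1 and 2 lay inside the wt range. The difference was -1.21 (SE 0.54, limma p = 0.0483, adjusted p = 0.490, exact permutation p = 0.0952), and -2.0 without arrays 1 and 2. The second Ndufc1 probe was above 7.5 on all arrays and differed by -0.17, so the probes gave the same sign and unlike sizes. Ndufa6, an accessory subunit of the peripheral arm that binds the acyl carrier protein, had the largest positive difference in the complex. It read 7.08, 11.84, 10.16 and 9.78 on Socs2-/- arrays and 7.51, 8.03, 9.34, 8.40 and 8.83 on wt arrays, so that 3 Socs2-/- arrays were above all wt arrays and array 1 was below them all. Its difference was 1.29 (SE 0.82, limma adjusted p = 0.595) and ranged from 0.59 without Socs2-/- array 2 to 2.17 without array 1. Ndufb2, of the membrane arm, differed by 0.86 (SE 0.54), and by 0.13 without arrays 1 and 2. Ndufb8, a bright membrane-arm subunit, read 12.75 to 13.05 on Socs2-/- arrays and 12.21 to 13.03 on wt arrays, and its difference was 0.12 (SE 0.33). The remaining measured complex I subunits lay between -0.72 and 0.80.

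Complex III passes electrons from ubiquinol to cytochrome c. Uqcr11, one of its smallest subunits (ILMN_2871881, gene on chromosome 10), read 12.55, 12.38, 11.98 and 12.45 on Socs2-/- arrays and 11.59, 11.92, 11.79, 11.45 and 11.93 on wt arrays. All 4 Socs2-/- arrays lay above all 5 wt arrays, the nearest being Socs2-/- array 3 at 11.98 and wt array 5 at 11.93. The difference was 0.61 (SE 0.32, limma p = 0.0883, adjusted p = 0.541, exact permutation p = 0.0159), and it was 0.53 to 0.73 with any 1 array left out. That permutation p is the smallest possible and only restates that the genotypes do not overlap (background 0.983% higher and 2.72% lower). Its residual SD was 0.23, and the moderated variance of limma, which draws each gene towards the others tested, is part of this SE. Among genes above 7.5 on all arrays the limma adjusted p was 0.403, and with a variance that follows intensity it was 0.344. The core protein Uqcrc2 differed by -0.74 (SE 0.44) and the Rieske iron-sulfur protein Uqcrfs1 by -0.71 (SE 0.54), with limma adjusted p of 0.573 and 0.647. Uqcrfs1 read 6.94 and 6.84 on Socs2-/- arrays 1 and 2 and 8.57 and 8.64 on arrays 3 and 4, against 7.54 to 9.39 on wt arrays. Its low values were thus on the 2 low-signal arrays, and its difference without them was 0.15. The small subunit Uqcr10 differed by 0.08 (SE 0.39), and Uqcrc1, Uqcrh and Uqcrq by 0.37, 0.14 and -0.48.

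Complex IV reduces oxygen, and several of its nuclear-encoded subunits exist as tissue isoforms. Of 13 isoform genes with a named probe (those of subunits 4, 6a, 6b, 7a, 7b and 8, with Ndufa4, a complex I gene by its symbol that is now placed in complex IV), 9 were measured. The widely expressed forms Cox4i1, Cox6a1, Cox6b1, Cox7b and Ndufa4 were above 7.5 on all 9 arrays. Cox7a2, the widely expressed form of subunit 7a, was above it on only 5 arrays, and Cox4i2, Cox6b2 and Cox7a1 on 4 or 5. Cox4i2, an isoform of subunit 4 known for its response to oxygen in lung, read 10.55, 8.68, 8.30 and 7.36 on Socs2-/- arrays and 6.88, 7.57, 7.37, 7.32 and 7.52 on wt arrays. Socs2-/- arrays 1 to 3 lay above all wt arrays, and the wt arrays lay close to the limit of 7.5. The difference was 1.39 (SE 0.58, limma p = 0.0352, adjusted p = 0.473, exact permutation p = 0.0635), and 0.50 without Socs2-/- arrays 1 and 2. Measured erythroid genes, 4 of 11 with a named probe, were also highest on Socs2-/- array 1. Their mean deviation was 2.48, 0.84, -0.03 and -0.46 on Socs2-/- arrays and -1.01 to 0.25 on wt arrays, and the median difference of the 4 genes was 0.61 with all 4 above 0, or -0.28 with 1 above 0 without Socs2-/- arrays 1 and 2. Hba-a1, an alpha globin, read 13.32, 10.41, 8.92 and 10.52 on Socs2-/- arrays and 6.84 to 9.10 on wt arrays. Its difference was 3.37, or 2.30 without Socs2-/- arrays 1 and 2, and its genotypes overlapped through Socs2-/- array 3 and the highest wt array. Hba-a1 met the filter through its Socs2-/- arrays, with 1 wt array above 7.5, so no test is given. The beta globins Hbb-b2, Hbb-bt and Hbb-bs, above 7.5 on all 9 arrays, differed by 0.70, 0.51 and 0.52. Without Socs2-/- arrays 1 and 2 they differed by -0.20, -0.36 and -0.45. Among the 7 erythroid genes that were not measured, Slc4a1 and Alas2 were also high on Socs2-/- array 1, at 10.15 and 11.77, while Klf1 and Epor read 6.95 and 6.96 on that array. Alas2 also read 11.24 on wt array 3. The part of erythroid RNA in the Cox4i2 difference was not tested.

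The widely expressed form of subunit 4, Cox4i1, read 11.42 to 12.24 on Socs2-/- arrays and 11.25 to 11.75 on wt arrays, a difference of 0.20 (SE 0.34). Cox7a1, an isoform of heart and skeletal muscle, was at or below 7.5 on all Socs2-/- arrays and above it on 4 of 5 wt arrays, up to 8.78. It entered the fit through its wt arrays alone, so no test is given, and wt array 1, at 6.91, lay among the Socs2-/- values of 6.87 to 7.24. Cox6b2, a testis isoform, read 8.76, 9.27, 7.70 and 7.21 on Socs2-/- arrays and 9.01 on wt array 2, with the other wt arrays at 7.12 to 7.48. Its difference of 0.61 (SE 0.56) was -0.16 without Socs2-/- arrays 1 and 2. Cox6c and Cox6b1, small subunits of the complex, had narrow ranges over all 9 arrays, with values of 12.68 to 13.01 and 12.23 to 12.61. They differed by 0.06 and 0.12 (SE 0.30 each), though a second Cox6b1 probe gave -0.69. Cox7a2l, which by symbol falls here and is known as a supercomplex assembly factor, differed by 0.12.

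Of the 5 complexes, complex V had the lowest median residual SD, as given above. The 5 subunits of F1, which is the ATP-making head with the central stalk under it, differed by 0.19 to 0.35, and all 5 were positive. Atp5b, the catalytic subunit, read 13.02, 12.73, 12.73 and 12.46 on Socs2-/- arrays and 12.51, 12.69, 12.01, 12.52 and 12.64 on wt arrays, a difference of 0.26 (SE 0.33). Socs2-/- array 4 lay below 4 of the wt arrays, and the others lay above all 5. Atp5e, a small subunit of the stalk under the head, read 12.30 to 12.77 on Socs2-/- arrays and 11.98 to 12.43 on wt arrays, a difference of 0.35 (SE 0.31, limma adjusted p = 0.700, exact permutation p = 0.0317). Its 95% interval ran from -0.35 to 1.04, just past 2-fold at its upper end.

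In the peripheral stalk Atp5o, the subunit that ties the stalk to the head, had the smallest p of the complex. It read 11.83, 12.33, 11.50 and 11.53 on Socs2-/- arrays and 10.47, 11.60, 11.43, 10.77 and 11.51 on wt arrays, so the genotypes overlapped through wt arrays 2 and 5. The difference was 0.64 (SE 0.39, limma p = 0.129, adjusted p = 0.583, exact permutation p = 0.0952), and the other Atp5o probes gave 0.23 and 0.27. Subunit b of the stalk, Atp5pb, differed by 0.26 (SE 0.36) on its brightest probe and by 0.86 and 1.10 on its other measured probes. In the c ring, which turns as protons pass, Atp5g2 differed by -0.46 (SE 0.39) and Atp5g3 by 0.17 (SE 0.33), with limma adjusted p of 0.676 and 0.868. Atp5g2 read 10.07 to 11.41 on Socs2-/- arrays and 10.86 to 11.32 on wt arrays, so 1 Socs2-/- array lay above the wt range and 3 lay below it.

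**Figure D4:**
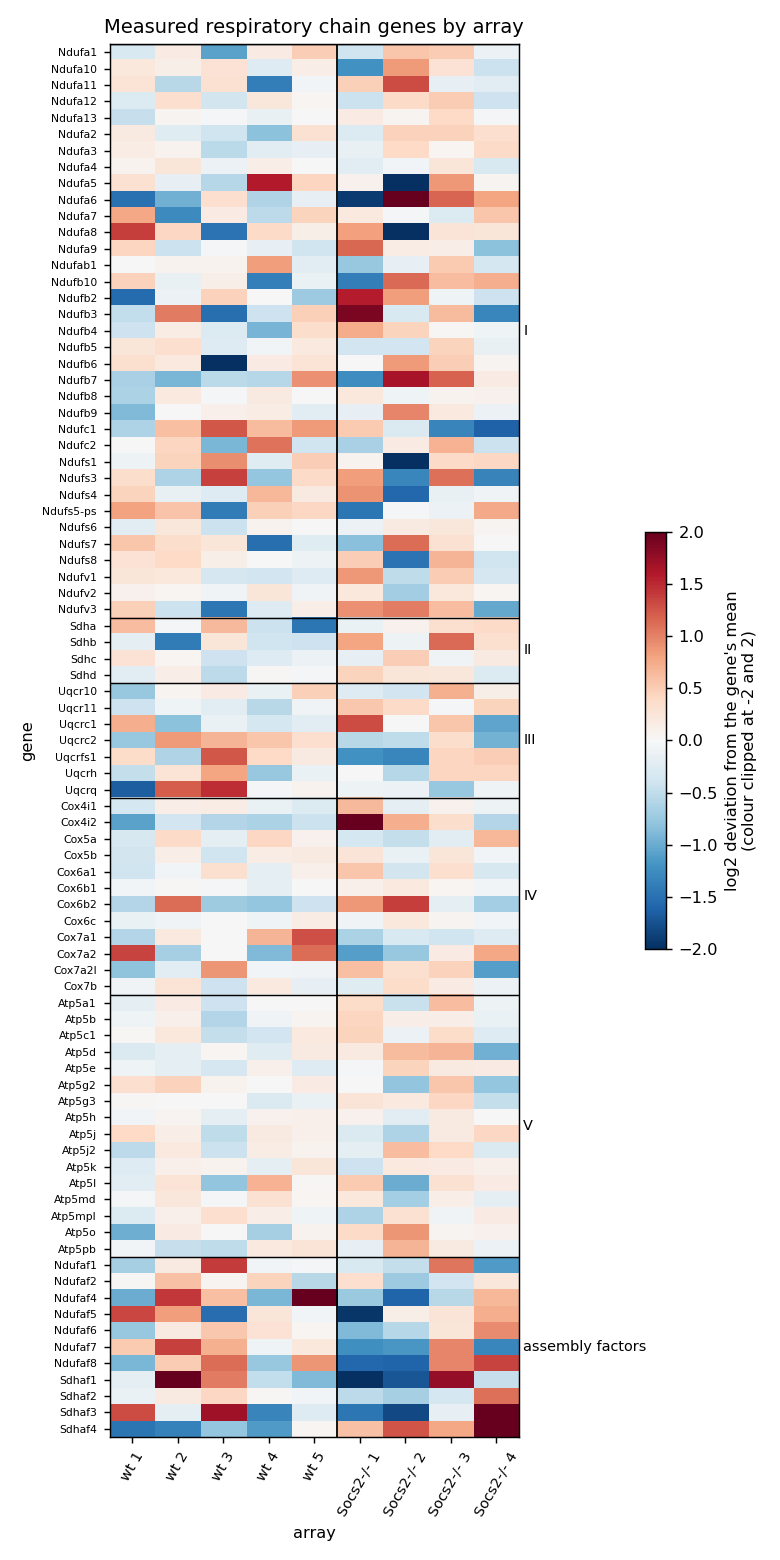
Log2 deviation from each gene's mean over all 9 arrays for the 85 measured genes, ordered by complex, with colours clipped at -2 and 2. Complex V rows are pale on all arrays, and the assembly factors other than Sdhaf4 are mostly blue on Socs2-/- arrays 1 and 2.

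Genes next to the chain were described for comparison. A first list (7 measured) held Cycs, the ATP synthase inhibitor Atpif1, Etfa, Etfb and Etfdh. It also held Cyc1, a complex III subunit that the symbol rule misses, and Cox7a2l, which is counted in complex IV above as well. This list had a median of 0.05 with 4 above 0. Assembly factors with other names (21 measured) had a median of -0.15 with 9 above 0. At an unadjusted p under 0.05, 2 of 21 were higher (Ecsit and Bcs1l, background 2.29%). Cox18 was lower at that level (background 7.87%). Surf1 is not counted there, since it was above 7.5 on wt arrays only, while the background includes such genes. Regulators of mitochondrial transcription and DNA maintenance (14 measured) had a median of -0.07 and the citric acid cycle and pyruvate dehydrogenase genes (15 measured) one of -0.05, with none at that level in either. Ecsit, a complex I assembly factor that also acts in Toll-like receptor signalling, read 11.41, 10.99, 11.56 and 11.36 on Socs2-/- arrays and 10.63, 10.68, 8.93, 9.72 and 10.31 on wt arrays. The genotypes did not overlap (background 0.983%), and the difference was 1.28 (SE 0.43, limma p = 0.0139, adjusted p = 0.415, exact permutation p = 0.0159). Here too the permutation p only restates the lack of overlap. Surf1, a complex IV assembly factor, was below 7.5 on all Socs2-/- arrays, at 6.70 to 7.14, and read 7.26 to 9.16 on wt arrays. It too entered the fit through its wt arrays alone, and no test is given. Etfb and Etfdh, which pass electrons from fat oxidation to the chain, differed by 0.25 and -0.45. The mitochondrial DNA polymerase subunits Polg and Polg2 differed by 0.84 and -0.91, and the pyruvate dehydrogenase subunits Pdha1 and Pdhb by -1.43 and -1.27. For these 6 genes the genotypes overlapped, and Pdha1 read 7.27 and 6.58 on Socs2-/- arrays 1 and 2 against 9.56 and 8.82 on arrays 3 and 4.

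A gene's value here rests on the probe that stands for it. Of 24 subunits with more than 1 measured probe, 7 had probes of opposite sign, among them Atp5j at -0.79 and 0.19, Ndufs4 at -0.40 and 0.49, and Cox6b1. With the assembly factors included these counts were 8 of 27. By array, 33 of the 74 subunits kept a positive difference and 13 a negative one whichever array was left out, and the other 28 changed sign.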

How the data were processed

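Gene expression was measured on Illumina mouse bead arrays in LSK cells of 5 wt and 4 Socs2-/- samples, grouped by their titles. The values used are the authors' deposited log2 values. The submitters' processing notes name the R package lumi, with no version, transformation or normalization stated, so folds of dim genes may be understated. A second table, not normalized, was left out because its 18 columns of per-array values carry no label that names a sample. The platform annotation gave 1 symbol for 34885 of 45281 probes, several for 18 and none for 10378, and only the first kind was used. A probe entered when above 7.5 on at least 4 of 9 arrays. The probe with the highest mean was taken for each of the resulting 8543 genes.

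The fit was limma 3.58.1 in R 4.3.3 (lmFit and eBayes, two-sided, no covariate, Benjamini-Hochberg adjustment over all 8543 genes, threshold 0.05). Single genes were also tested by exact permutation of the 9 arrays, two-sided (SciPy 1.17.1). On simulated data for 8543 genes with independent noise, 25 of 50 genes with a log2 change of 3 and 39 of 50 with one of 4 were recovered, with 3 false calls in all. The members and the gene lists were chosen with earlier results of these data known. Named genes are those with an unadjusted p under 0.05, per complex the 3 with the smallest p and the 2 brightest, and the 2 with the smallest p among assembly factors and in each further list. Other genes named as examples were chosen after their values were seen. Alternatives covered the filter on dim probes, array scaling, the choice of probe, the replicate block, the variance model, array weights, each array left out in turn and both low-signal arrays left out.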

Additional observations from a re-analysis of the deposited data

Results flagged for a closer look

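Of 86 groups of values tested for a lone high or low array (the 37 named genes and the means of the 5 complexes and the assembly factors, each genotype apart), 8 held one, where chance gives about 4.3. Among the members, Ndufaf7 on Socs2-/- array 3 read 9.0, with the next array at 6.87, and Ndufs1 on Socs2-/- array 2 read 6.84, with the next at 9.29. Ndufb8 on wt array 1 read 12.21 (next 12.80), Atp5b on wt array 3 read 12.01 (next 12.51) and Cox6b2 on wt array 2 read 9.01 (next 7.48). Outside the members, Socs2 on wt array 3 read 10.36 (next 9.65), Polg on wt array 2 read 8.29 (next 7.32) and Polg2 on Socs2-/- array 4 read 9.26 (next 7.01). Without these arrays the differences were -1.78 for Ndufaf7, -0.01 for Ndufs1, -0.02 for Ndufb8, 0.14 for Atp5b and 0.96 for Cox6b2.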

How the results depend on the processing

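Under all 19 alternatives no subunit passed an adjusted p of 0.05. The count over all genes, 1 as reported, was 2 without a filter, 3 with a signal above 7.5 on all arrays, and 0 with centred arrays, with the replicate block, with an intensity trend or without Socs2-/- arrays 1 and 2; it was 0 to 7 with 1 array left out (7 without wt array 3). Subunits higher at an unadjusted p under 0.05, 2 as reported, numbered 4 without a filter, 1 with array weights, 0 with the replicate block and 0 to 2 with 1 array left out. Those lower, 1 as reported, numbered 0 with centred arrays, quantile normalization, the mean of all probes, the replicate block or an intensity trend, and 0 to 3 with 1 array left out. Same-numbered arrays share only a number: their deviations from the group means correlated at 0.02, -0.05, -0.07 and 0.04, and those numbered 2 and 3 correlated better with another number. In the replicate block wt array 5 has no partner and carries no weight, and genes not above 7.5 on every array have no value under that filter. The cause of these shifts was not tested beyond the fewer genes or arrays that some alternatives use. The assembly factor median of -0.38 became 0.29 without Socs2-/- arrays 1 and 2 and lay between -0.70 and -0.05 with 1 array left out. With centred arrays the medians of complexes I to V were 0.31, 0.40, 0.20, 0.22 and 0.30, against 0.19, 0.28, 0.08, 0.11 and 0.18 as reported, and that of the assembly factors was -0.27. Of 37 named genes, 27 kept their sign throughout. Without Socs2-/- arrays 1 and 2 the differences of Ndufv2 (0.0722), Uqcrfs1 (0.15), Cox6b2 (-0.16), Ndufs1 (0.10), Ndufs8 (0.0014) and Etfdh (0.25) changed sign. Ndufv2 read 0.0116 with centred arrays, Cox6b1 -0.29 as the mean of its probes, and Sdha -0.0365 with the replicate block. With 1 array left out the ranges were -0.0206 to 0.18 for Ndufb8, -0.20 to 0.11 for Ndufv2, -0.0365 to 0.49 for Sdha, -0.14 to 0.23 for Uqcr10, -0.60 to 0.12 for Ndufs8 and -0.81 to 0.11 for Etfdh. Genes near 7.5, the assembly factors above all, lie close to the lower limit of signal, and with 4 and 5 arrays the precision is low.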
